A study of Mus musculus with 14 samples.

Results

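Transcripts of 8 genes of the LIM domain regulatory system were followed in mouse forelimb buds with and without mesenchymal Smad4. Lhx2 was the only one of the 8 genes that was called lower in the mutants at both stages, by 0.47 on the log2 scale in the earlier buds and by 0.54 in the later ones. It also fell from E10.0 to E10.5 in both genotypes, as Lmx1b did, while Ldb2 rose. Isl1 was called higher in the mutants at E10.0, from less than 2 CPM (reads of a gene scaled to a common library total) in any library. The genes were taken by symbol (Lhx2, Lhx9, Lmx1b, Isl1, Ldb1, Ldb2, Lmo1 and Lmo4), and they make up 8 of the 23284 symbols counted.

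LIM domains are zinc-binding modules that bind other proteins. In LIM-homeodomain transcription factors they sit beside a DNA-binding homeodomain and are joined by the dimerising cofactors Ldb1 and Ldb2, which bring LIM factors into larger complexes with single-stranded DNA-binding proteins of the Ssbp family. LIM-only proteins such as Lmo1 and Lmo4 have no homeodomain and can occupy the same site on Ldb, so that they compete with LIM-homeodomain factors or bridge them to other proteins. In the limb bud, Lhx2 and Lhx9 act in the distal mesenchyme in the relay between the apical ectodermal ridge and Shh, Lmx1b specifies dorsal fate downstream of Wnt7a, and Isl1 is best known from hindlimb initiation and from motor neurons.

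Each of the 14 libraries held RNA of both forelimb buds of 1 embryo of the NMRI strain. The wild-type embryos were Smad4+/+ PrxCreT/+ and the mutants Smad4Δ/Δc PrxCreT/+, so that every embryo carried the Cre transgene. The mutants combined a null allele with a conditional allele that the Prrx1-driven Cre deletes in limb mesenchyme, which leaves cells outside the Cre domain, such as the ectoderm, with an intact conditional allele. Wild type (n=3) and mutants (n=4) were collected at E10.0 with 30 somites and at E10.5 with 35 somites. Mutant replicates carry the numbers 1, 3, 4 and 5 in the E10.0 group and 1, 2, 4 and 5 in the E10.5 group.

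Between 34066930 and 61691258 reads per library fell on genes. Levels are CPM after TMM normalisation, and all 8 genes passed the filter of at least 1 CPM in at least 3 libraries. Smad4 itself was at 152 to 169 CPM in the wild-type and at 32.9 to 46.0 CPM in the mutant libraries, and the groups did not overlap. In mutant replicates 4 and 5 of both stages, the ribosomal RNA precursor Rn45s made up 1.72% to 8.05% of gene reads, compared with 0.151% to 0.478% for the other 10 libraries. All 4 of these libraries are mutants, so that this feature and the genotype cannot be told apart among them, and results are given with and without them where they differ. Limb mesenchyme markers (Prrx1, Prrx2, Tbx5, Twist1 and Fgf10) were abundant in all libraries, with a summed level of 869 to 1318 CPM. In RNA of whole buds, fewer cells of a type and less RNA per cell cannot be told apart.

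A gene was called where edgeR's exact test gave a Benjamini-Hochberg adjusted p of at most 0.1 over 12393 genes and the fold change was at least 1.2. Of all genes tested, 6.61% were called between mutants and wild type at E10.0 (3.33% higher and 3.28% lower), and 2 of the 8 genes were called, Isl1 higher and Lhx2 lower. At E10.5 it was 3.73% of all genes (2.19% higher and 1.54% lower) and 1 of the 8 genes, Lhx2. The balance of directions at E10.0 moved with the scaling, with 413 genes higher and 406 lower here, 512 and 336 with RLE size factors, and 519 and 313 with Rn45s removed before scaling. It also depended on the libraries, with 765 higher and 1253 lower without the 4 libraries rich in Rn45s. From E10.0 to E10.5, 10.1% of all genes were called in wild type (5.39% higher and 4.74% lower), among them 3 of the 8 genes. In the mutants 19.2% were called (10.8% higher and 8.4% lower), among them 4 of the 8. The change with stage differed between genotypes in 0.186% of all genes by edgeR's quasi-likelihood test, and in 0 of the 8 (0 also at an unadjusted p under 0.05, and 0 with DESeq2). The median log2 fold change of the 8 genes was -0.17 between genotypes at E10.0 and -0.11 at E10.5, beside -0.02 and -0.01 over all genes tested. With stage it was -0.17 in wild type and -0.26 in the mutants, beside medians over all genes of -0.01 in both. The 2 genotype comparisons have no library in common, whereas each shares its libraries with the stage comparisons. They share the scaling and the dispersions estimated over all libraries, so that they are not independent.

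**Figure D1:**
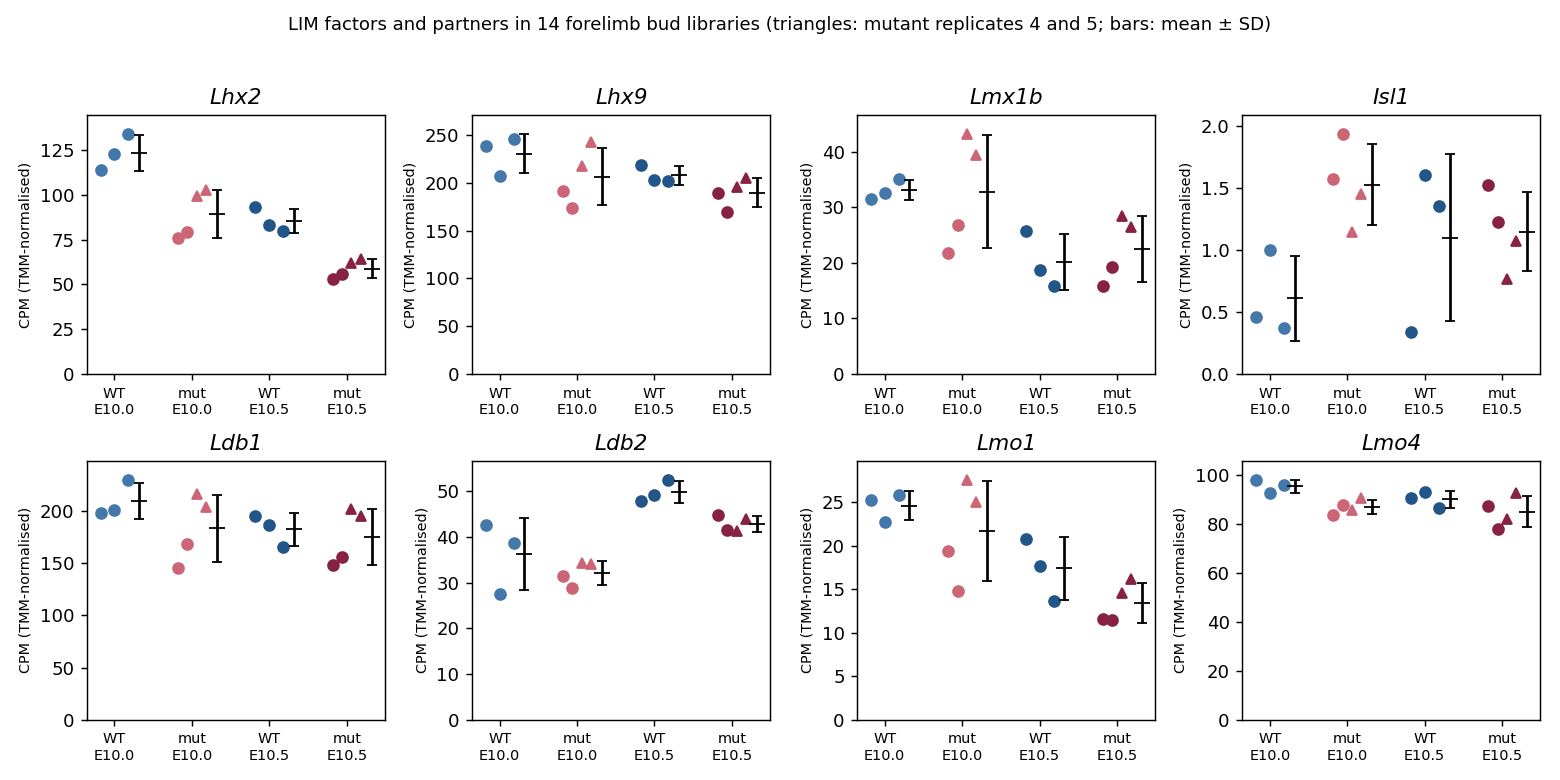
CPM after TMM normalisation (vertical axes, from 0) of the 8 genes in each of the 14 libraries, by genotype (WT, wild type, n=3; mut, Smad4Δ/Δc, n=4) and stage. Points are libraries, triangles are mutant replicates 4 and 5, and bars are the mean ± SD; in Lhx2 every mutant point lies below every wild-type point of the same stage.

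Lhx2 and Lhx9 are close relatives within the LIM-homeodomain family, and the stretch before the transcription start is shown for both, as the 2 most abundant LIM-homeodomain genes of these buds. The windows hold the 250 bases before a RefSeq start in GRCm38.p6, written 5′ to 3′ along the gene, with GGCGCC in capitals. This GC-rich palindrome is one of the sequences that SMAD proteins bind. Lhx2 has starts at 2 places, with windows at chr2:38339031-38339280 and chr2:38351058-38351307 on the plus strand, and the window of Lhx9 is chr1:138842445-138842694 on the minus strand.
Lhx2, first start: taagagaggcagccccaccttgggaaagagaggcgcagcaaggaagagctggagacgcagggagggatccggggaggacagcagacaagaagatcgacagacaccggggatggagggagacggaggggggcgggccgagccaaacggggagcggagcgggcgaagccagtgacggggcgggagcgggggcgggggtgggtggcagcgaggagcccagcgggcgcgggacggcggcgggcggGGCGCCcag
Lhx2, second start: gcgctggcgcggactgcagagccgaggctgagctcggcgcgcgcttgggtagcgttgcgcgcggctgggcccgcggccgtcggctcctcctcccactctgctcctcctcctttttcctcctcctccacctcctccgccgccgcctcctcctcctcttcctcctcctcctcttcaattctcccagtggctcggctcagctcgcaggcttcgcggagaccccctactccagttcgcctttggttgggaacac
Lhx9: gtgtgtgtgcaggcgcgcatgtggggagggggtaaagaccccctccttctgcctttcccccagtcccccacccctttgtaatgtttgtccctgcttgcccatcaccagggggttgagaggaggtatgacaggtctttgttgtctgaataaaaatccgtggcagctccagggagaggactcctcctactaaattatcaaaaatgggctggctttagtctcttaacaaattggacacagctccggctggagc
The first Lhx2 window holds GGCGCC once, starting 9 bases before the transcription start, and the other windows printed do not hold it. The motif occurs in 9.59% of the 32851 mouse windows of the same length. Of the 8 genes, 7 had windows (13 in all), and 5 of these 13 windows held GGCGCC, in 5 genes: Lhx2, Isl1, Ldb1, Lmo1 and Lmo4. The GC content was 72.8% in the first Lhx2 window, 68.4% in the second and 53.6% in that of Lhx9. The share of 9.59% is over windows of any GC content, and no comparison with windows of like GC content was made. The Smad palindrome GTCTAGAC, present in 0.167% of all windows, was in none of the 13. TAATTA, a core that many homeodomains bind and that 4.84% of all windows hold, was in both overlapping windows of Lmo1 and in no other. All these motifs read the same on both strands. Such matches describe the letters only and show no binding.

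Lhx2 (chromosome 2, 38194801 to 38225253, plus strand, in mm9), a LIM-homeodomain factor of the distal limb mesenchyme, was at 114, 123 and 134 CPM in wild-type replicates 1 to 3 at E10.0. The mutants of that stage had 75.8, 79.4, 99.0 and 103 CPM in replicates 1, 3, 4 and 5. All mutants lay below all wild types, and replicates 4 and 5, the libraries rich in Rn45s, were the highest of the mutants. The log2 fold change was -0.47 (SE 0.11, 95% interval -0.69 to -0.25, adjusted p = 0.00182, edgeR exact test, Benjamini-Hochberg). At E10.5, wild-type replicates 1 to 3 had 93.1, 83.3 and 79.9 CPM. The levels were 52.9, 55.6, 62.0 and 64.1 CPM in mutant replicates 1, 2, 4 and 5. The groups were again separate, with replicates 4 and 5 uppermost among the mutants. The difference was -0.54 (SE 0.11, 95% interval -0.76 to -0.32, adjusted p = 0.000136, edgeR exact test, Benjamini-Hochberg). Expressed as means, Lhx2 was 27.7% lower in the mutants at E10.0 and 31.3% lower at E10.5.

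Without the 4 libraries rich in Rn45s, the Lhx2 difference was -0.65 in the earlier and -0.64 in the later buds. Lhx2 was called in every alternative fit of both comparisons, with log2 fold changes of -0.65 to -0.45 and -0.69 to -0.53 over the alternative settings, and of -0.54 to -0.39 and -0.59 to -0.47 when 1 library was left out. The change of Lhx2 between genotypes differed between the stages by -0.07 (95% interval -0.38 to 0.23, adjusted p = 0.963, edgeR quasi-likelihood test, Benjamini-Hochberg).

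Most markers of limb mesenchyme were called lower in the mutants, as Lhx2 was. Of 5 mesenchyme markers, 4 were called lower in the mutants at E10.0 (Prrx1, Prrx2, Tbx5 and Twist1) and 3 at E10.5 (Prrx1, Prrx2 and Twist1). The remaining marker at E10.0, Fgf10, had means of 57.8 CPM in wild type and 62.2 CPM in the mutants and was not called. The summed level of the 5 markers was 1067 to 1218 CPM in wild type and 869 to 1012 CPM in the mutants at E10.0, and 1258 to 1318 against 980 to 1084 CPM at E10.5. As a share of this sum in the same library, Lhx2 was 10.6% ± 1.10 (SD, n = 3) in wild type and 9.60% ± 1.70 (SD, n = 4) in the mutants at E10.0, with ranges of 9.39% to 11.5% and 7.50% to 11.4%. At E10.5 the shares were 6.68% ± 0.65 (SD, n = 3) and 5.69% ± 0.77 (SD, n = 4), with ranges of 6.06% to 7.35% and 4.88% to 6.38%. Relative to these markers the mean of Lhx2 was thus 9.66% and 14.7% lower in the mutants, and the groups overlapped at both stages. Without the libraries rich in Rn45s, the other mutants had shares of 7.50% and 9.07% at the earlier stage, and of 4.88% and 5.20% at the later one. These lay below all wild types, and their means were 22.0% and 24.5% lower. The paper counts Prrx2 among the SMAD4 target genes, so that the sum is not a measure of mesenchyme independent of genotype. It also counts Lhx2 itself among them, with reduced anterior expression in mutant buds by in situ hybridisation. Citing earlier work, it describes early mutant buds as free of mesenchymal apoptosis and of altered morphology. The ratio of Lhx2 to the marker sum was chosen after the values had been seen, and the part of the markers in the Lhx2 result was not tested.

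With stage, Lhx2 fell in wild type by 0.53 on the log2 scale (SE 0.12, adjusted p = 0.000434) and in the mutants by 0.61 (SE 0.10, adjusted p = 2.79e-07), both with the edgeR exact test and Benjamini-Hochberg adjusted p-values. The stages did not overlap in either genotype. The summed mesenchyme markers were not lower at E10.5 than at E10.0 in wild type (1258 to 1318 against 1067 to 1218 CPM).

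Lhx9 (chromosome 1, 140721763 to 140745153, minus strand, in mm9) acts redundantly with Lhx2 in limb mesenchyme. Its wild-type levels at E10.0 were 239, 207 and 246 CPM in replicates 1 to 3, and those of the mutants were 192, 174, 217 and 243 CPM in replicates 1, 3, 4 and 5. At E10.5, wild type had 219, 203 and 201 CPM, and the mutants had 189, 169, 195 and 205 CPM. The genotypes overlapped at both stages, with mutant replicate 5 inside the wild-type range each time and replicate 4 inside it at E10.0. Lhx9 had a log2 fold change of -0.16 at E10.0 (95% interval -0.37 to 0.05, adjusted p = 0.456) and -0.13 at E10.5 (95% interval -0.34 to 0.08, adjusted p = 0.814) with the edgeR exact test and Benjamini-Hochberg adjusted p-values. With stage it was -0.15 in wild type and -0.12 in the mutants, and neither was called. Without the 4 libraries rich in Rn45s, Lhx9 was called lower at E10.0, at -0.32.

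The balance of both genes was compared within each library, per kilobase of exon. Lhx9 stood at 1.05 ± 0.12 (SD, n = 3) times the level of Lhx2 in wild type at E10.0, and at 1.30 ± 0.09 (SD, n = 4) times in the mutants. At E10.5 the ratio was 1.37 ± 0.05 (SD, n = 3) in wild type and 1.82 ± 0.13 (SD, n = 4) in the mutants. The ranges were 0.949 to 1.18 against 1.23 to 1.42 at E10.0, and 1.32 to 1.42 against 1.71 to 2.01 at E10.5. The genotypes did not overlap at either stage, with or without the libraries rich in Rn45s, and no test of the ratio was made. The share of Lhx2 in the summed per-length level of the 4 LIM-homeodomain genes was 44.9% ± 2.33 (SD, n = 3) in wild type and 39.1% ± 1.05 (SD, n = 4) in the mutants at E10.0. At E10.5 it was 39.4% ± 0.49 (SD, n = 3) and 32.4% ± 1.18 (SD, n = 4).

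**Figure D2:**
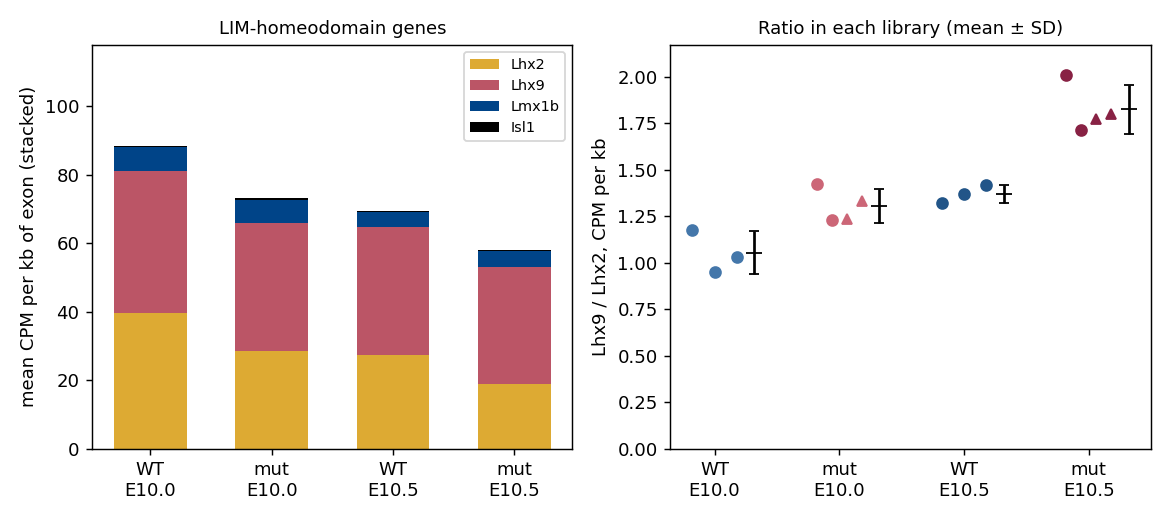
Left, mean CPM per kilobase of exon of the 4 LIM-homeodomain genes, stacked from 0, in wild type (WT, n=3) and mutants (mut, n=4) at each stage. Right, the ratio of Lhx9 to Lhx2 per kilobase in each library, with the mean ± SD; triangles are mutant replicates 4 and 5, and the ratio is highest in the mutants at E10.5, at 1.71 to 2.01.

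Lmx1b (chromosome 2, 33416485 to 33496031, minus strand, in mm9), the selector of dorsal limb mesenchyme, had 31.5, 32.6 and 35.0 CPM in wild-type replicates 1 to 3 at E10.0. The mutants had 21.8, 26.8, 43.2 and 39.4 CPM in replicates 1, 3, 4 and 5. The mutants thus lay on both sides of the wild types, with replicates 4 and 5 above and the other 2 below. The log2 fold change was -0.01 (95% interval -0.44 to 0.41, adjusted p = 0.987, edgeR exact test, Benjamini-Hochberg). At E10.5 the wild-type levels were 25.7, 18.7 and 15.9 CPM, followed by 15.9, 19.2, 28.5 and 26.5 CPM for mutant replicates 1, 2, 4 and 5. The difference was 0.17 (95% interval -0.26 to 0.59, adjusted p = 0.925, edgeR exact test, Benjamini-Hochberg), and replicates 4 and 5 were again the highest mutants. Without the libraries rich in Rn45s, Lmx1b was called lower at E10.0, at -0.43, and stood at -0.18 at E10.5.

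With stage, Lmx1b fell by 0.72 on the log2 scale in wild type (SE 0.23, adjusted p = 0.0328) and by 0.54 in the mutants (SE 0.20, adjusted p = 0.0412), with the edgeR exact test and Benjamini-Hochberg adjusted p-values. The stages were separate in wild type and overlapped in the mutants. In the mutant numbers present at both stages, Lmx1b was at 21.8 CPM at E10.0 and 15.9 CPM at E10.5 in replicate 1. It was at 43.2 and 28.5 CPM in replicate 4, and at 39.4 and 26.5 CPM in replicate 5. These are different embryos, no label says what equal numbers share, and the numbers were not separated from the Rn45s split. The wild-type call was lost without replicate 2 or 3 of E10.0 (-0.73 and -0.67) or replicate 2 or 3 of E10.5 (-0.66 and -0.57). The mutant call was lost without replicate 4 or 5 of E10.0 (-0.38 and -0.44) or replicate 1 or 2 of E10.5 (-0.40 and -0.47). Both missed the threshold with the quasi-likelihood test, at an adjusted p of 0.110 and 0.102, within 4.34e-05 to 0.311 and 0.00327 to 0.206 over all alternatives.

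Isl1 (chromosome 13, 117088478 to 117099896, minus strand, in mm9) was scarce. Wild-type replicates 1 to 3 had 0.46, 1.0 and 0.37 CPM at E10.0, from 17 to 49 reads. The mutants had 1.57, 1.94, 1.15 and 1.45 CPM in replicates 1, 3, 4 and 5, from 42 to 112 reads. All mutants were above all wild types, with wild-type replicate 2 closest to them. The log2 fold change was 1.32 (SE 0.39, 95% interval 0.56 to 2.09, adjusted p = 0.0300, edgeR exact test, Benjamini-Hochberg). The call was lost without wild-type replicate 1 (1.15, adjusted p = 0.177) or replicate 3 (1.09, adjusted p = 0.319) and with the quasi-likelihood test (1.33, adjusted p = 0.112), out of a range of 0.00157 to 0.319 over all alternatives in edgeR and DESeq2.

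At E10.5, wild type had 0.34, 1.61 and 1.36 CPM of Isl1 and the mutants had 1.53, 1.23, 0.76 and 1.07 CPM. Wild-type replicate 1 was far below its 2 companions, and the genotypes overlapped. The difference was 0.06 (95% interval -0.68 to 0.81, adjusted p = 0.996, edgeR exact test, Benjamini-Hochberg). The genotype effects of the stages differed by -1.26 (95% interval -2.43 to -0.09, adjusted p = 0.862, edgeR quasi-likelihood test, Benjamini-Hochberg), which is not a call. The unadjusted p of the same quasi-likelihood test was 0.0514, so that this normal interval is narrower than the test implies. No stage change of Isl1 was called in either genotype (0.86 in wild type and -0.40 in the mutants). The wild-type change was called without replicate 1 of E10.5 (1.29) or replicate 2 of E10.0 (1.41), and ranged from 0.49 to 1.41 when 1 library was left out.

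Markers of other cell types that the dissected buds could hold were followed as lists. Of 4 mesothelium and body wall markers, 2 (Wt1 and Upk3b) were called higher in the mutants at E10.0 and lower at E10.5. Their summed level was 6.41 to 9.67 CPM in wild type and 12.9 to 24.2 CPM in the mutants at E10.0, and 9.15 to 11.6 against 4.93 to 7.75 CPM at E10.5. At E10.0 this sum and Isl1 were both higher in every mutant than in every wild type, whereas at E10.5 the sum separated the genotypes the other way and Isl1 overlapped. The 4 macrophage markers, of which Cx3cr1 was called higher, summed to 1.74 to 3.64 CPM in wild type and 4.78 to 5.90 CPM in the mutants at E10.0. The summed level of the 8 markers of motor and sensory neurons was lower in the mutants at that stage, at 9.80 to 11.1 CPM against 12.3 to 15.1 CPM in wild type. Of these 8 markers 2 passed the filter, and 1 of them, Pou4f1, was called lower. The motor neuron markers Mnx1, Chat and Slc18a3 were at 0 to 0.05 CPM in all libraries of E10.0. The hindlimb gene Tbx4 was called higher in the mutants at E10.5 and was not called at E10.0, and the sum of Tbx4 and Pitx1 was 1.53 to 4.33 CPM in wild type and 2.34 to 4.89 CPM in the mutants at E10.0. The part of these cell types in the Isl1 result was not tested.

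**Figure D3:**
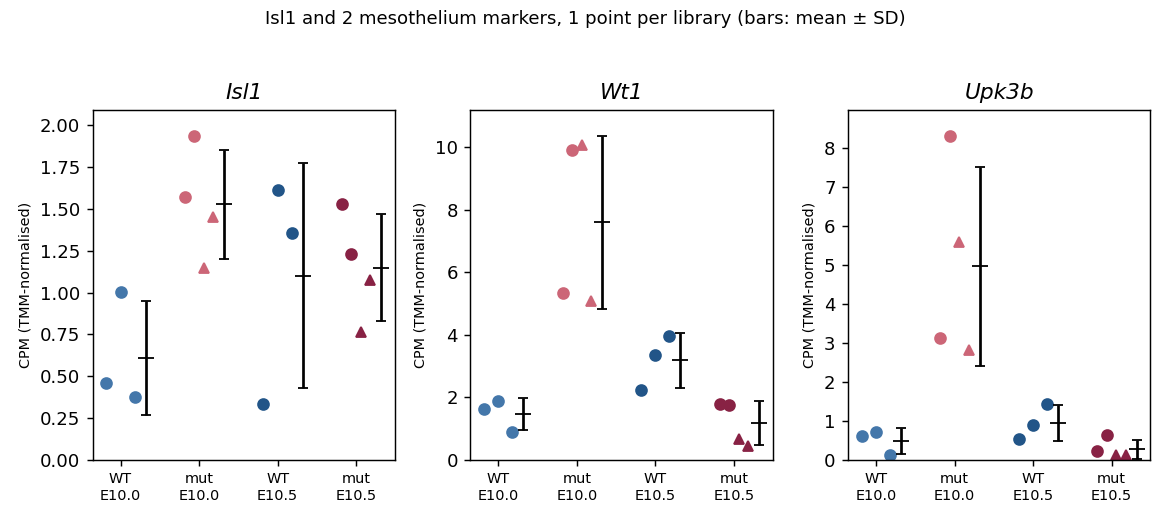
CPM of Isl1 and of the mesothelium markers Wt1 and Upk3b in each library (points; triangles, mutant replicates 4 and 5), with the mean ± SD, in wild type (WT, n=3) and mutants (mut, n=4) at both stages. All 3 genes are higher in every mutant than in every wild type at E10.0, and at E10.5 Wt1 is lower in every mutant while Isl1 overlaps.

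Ldb1 (chromosome 19, 46107083 to 46119704, minus strand, in mm9) is the main dimerising cofactor of LIM factors. It had 198, 201 and 230 CPM in wild-type replicates 1 to 3 at E10.0, and 146, 168, 216 and 204 CPM in mutant replicates 1, 3, 4 and 5. At E10.5 the levels were 195, 187 and 165 CPM in wild type and 149, 156, 202 and 195 CPM in mutant replicates 1, 2, 4 and 5. At both stages, mutant replicates 4 and 5 lay within or above the wild-type range and the other 2 mutants below it. The log2 fold changes were -0.19 at E10.0 (95% interval -0.45 to 0.06, adjusted p = 0.457) and -0.06 at E10.5 (95% interval -0.31 to 0.20, adjusted p = 0.970), with the edgeR exact test and Benjamini-Hochberg adjusted p-values. Without the libraries rich in Rn45s, Ldb1 was called lower at E10.0 (-0.40) and stood at -0.25 at E10.5. No stage change was called (-0.20 in wild type and -0.07 in the mutants). Ldb1 shares 177 exonic bases with Pprc1 on the opposite strand, and reads there cannot be assigned in unstranded libraries.

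Ldb2 (chromosome 5, 44863372 to 45190946, minus strand, in mm9), the second cofactor, rose with stage. In wild type it had 42.6, 27.5 and 38.6 CPM at E10.0 and 47.9, 49.1 and 52.5 CPM at E10.5. In the mutants it had 31.4, 28.8, 34.3 and 34.1 CPM at E10.0 and 44.7, 41.4, 41.3 and 43.9 CPM at E10.5. The stages did not overlap in either genotype, with wild-type replicate 2 of E10.0 the lowest of all libraries. The rise was 0.46 on the log2 scale in wild type (SE 0.13, adjusted p = 0.00796) and 0.41 in the mutants (SE 0.11, adjusted p = 0.00204), with the edgeR exact test and Benjamini-Hochberg adjusted p-values. Without wild-type replicate 2 of E10.0 the wild-type rise was 0.29 and was not called (adjusted p = 0.168, within 0.000581 to 0.168 over all alternatives). Between genotypes Ldb2 was not called at E10.0 (-0.17, 95% interval -0.41 to 0.06) or at E10.5 (-0.22, 95% interval -0.45 to 0.01), although all mutants of E10.5 lay below all wild types. Without wild-type replicate 2 of E10.0, the E10.0 difference was -0.34 and was called.

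Per kilobase of exon, Ldb1 was more abundant than Ldb2 in every library. The ratio of Ldb1 to Ldb2 was 4.38 ± 0.97 (SD, n = 3) in wild type and 4.17 ± 0.53 (SD, n = 4) in the mutants at E10.0. At E10.5 it was 2.70 ± 0.35 (SD, n = 3) and 3.01 ± 0.51 (SD, n = 4). The genotypes overlapped at each stage. The summed LIM-homeodomain level was 1.22 ± 0.03 (SD, n = 3) times the summed Ldb level in wild type and 1.16 ± 0.07 (SD, n = 4) times in the mutants at E10.0, and 0.993 ± 0.04 (SD, n = 3) against 0.894 ± 0.04 (SD, n = 4) at E10.5. This ratio was lower at E10.5 than at E10.0 in every library of both genotypes, and no test of it was made.

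Lmo1 (chromosome 7, 116282086 to 116313822, minus strand, in mm9) encodes a LIM-only protein. At E10.0 it had 25.3, 22.7 and 25.8 CPM in wild-type replicates 1 to 3 and 19.4, 14.8, 27.6 and 25.0 CPM in mutant replicates 1, 3, 4 and 5. At E10.5 it had 20.8, 17.7 and 13.7 CPM in wild type and 11.6, 11.4, 14.5 and 16.2 CPM in mutant replicates 1, 2, 4 and 5. The genotypes overlapped at both stages through replicates 4 and 5, and the difference was -0.18 at E10.0 (95% interval -0.54 to 0.17, adjusted p = 0.655) and -0.38 at E10.5 (95% interval -0.74 to -0.02, adjusted p = 0.449) with the edgeR exact test and Benjamini-Hochberg adjusted p-values. Without the libraries rich in Rn45s, Lmo1 was called lower at E10.0 (-0.51) and at E10.5 (-0.59). With stage, Lmo1 fell in the mutants by 0.69 on the log2 scale (SE 0.17, adjusted p = 0.000762, edgeR exact test, Benjamini-Hochberg), with mutant replicate 3 of E10.0 within the range of E10.5. In wild type the change of -0.50 (SE 0.20, adjusted p = 0.1004, edgeR exact test, Benjamini-Hochberg) narrowly missed the threshold, although the stages did not overlap. It passed in 11 of 23 alternative fits, among them those without the libraries rich in Rn45s (-0.49) and with the 2 groups alone (-0.49). Many of these fits left out mutant libraries, which enter this comparison only through the shared scaling and dispersion. Without mutant replicate 5 of E10.5, for example, the change was still -0.50 (adjusted p = 0.0951, edgeR exact test, Benjamini-Hochberg). Of the fits without a wild-type library, only that without replicate 1 of E10.5 passed (-0.64). In the mutant numbers present at both stages, Lmo1 was at 19.4 CPM at E10.0 and 11.6 CPM at E10.5 in replicate 1. It was at 27.6 and 14.5 CPM in replicate 4, and at 25.0 and 16.2 CPM in replicate 5. Equal numbers are different embryos, and no label links them.

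Lmo4 (chromosome 3, 143851494 to 143868184, minus strand, in mm9), the second LIM-only gene, varied little. Wild-type replicates 1 to 3 had 97.9, 92.7 and 95.8 CPM at E10.0, and the mutants had 83.9, 87.6, 85.7 and 90.5 CPM. All mutants lay below all wild types, by a small margin. The log2 fold change was -0.14 (95% interval -0.29 to 0.02, adjusted p = 0.381, edgeR exact test, Benjamini-Hochberg) and was not called. At E10.5 wild type had 90.6, 93.2 and 86.4 CPM and the mutants had 87.2, 78.0, 82.2 and 92.8 CPM, with overlap and a difference of -0.08 (95% interval -0.24 to 0.08). With stage the change was -0.08 in wild type and -0.03 in the mutants, neither called.

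**Figure D4:**
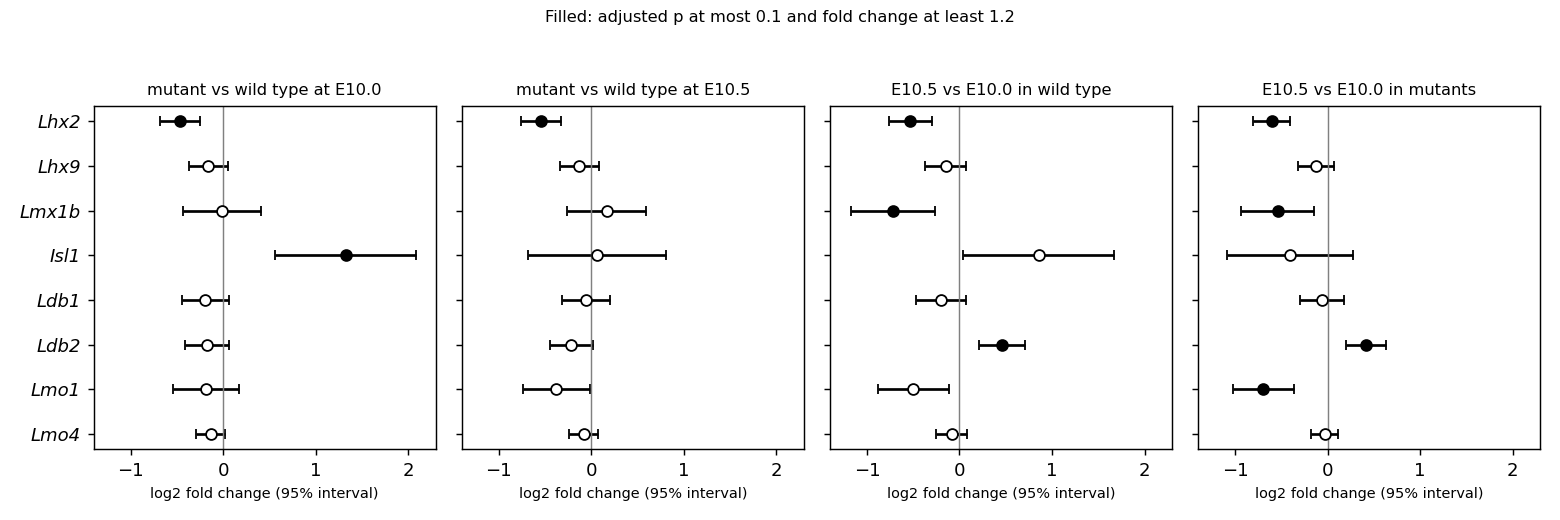
Log2 fold changes (horizontal axes) of the 8 genes in the 4 comparisons, with 95% intervals from the tag-wise dispersion. Filled points passed an adjusted p of 0.1 and a fold change of 1.2; Lhx2 is filled in all 4 comparisons, at -0.47, -0.54, -0.53 and -0.61.

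Groups without overlap were thus 3 of the 8 genes between genotypes at E10.0 (Lhx2, Isl1 and Lmo4) and 2 at E10.5 (Lhx2 and Ldb2), beside 17.8% and 12.99% of all genes tested. Between stages it was 5 of the 8 in wild type and 2 in the mutants, beside 37.0% and 20.02% of all genes. For comparison, 6.61% and 3.73% of all genes were called between genotypes. Ordered per kilobase, wild type at E10.0 had Ldb1 at 58.5 ± 4.92 (SD, n = 3) CPM per kilobase, Lhx9 at 41.6 ± 3.71, Lhx2 at 39.6 ± 3.21, Lmo4 at 29.0 ± 0.79, Lmo1 at 23.0 ± 1.55, Ldb2 at 13.8 ± 2.97, Lmx1b at 6.82 ± 0.37 and Isl1 at 0.24 ± 0.14. Among these neighbours, the ranges of Lhx9 and Lhx2 overlapped and the others did not. In wild type at E10.5 the order was Ldb1 (50.9 ± 4.37), Lhx9 (37.5 ± 1.77), Lhx2 (27.4 ± 2.21), Lmo4 (27.3 ± 1.04), Ldb2 (19.0 ± 0.90), Lmo1 (16.2 ± 3.36), Lmx1b (4.15 ± 1.04) and Isl1 (0.44 ± 0.27), with overlap between Lhx2 and Lmo4 and between Ldb2 and Lmo1. In the mutants at E10.0 it was Ldb1 (51.2 ± 9.0), Lhx9 (37.2 ± 5.45), Lhx2 (28.6 ± 4.37), Lmo4 (26.4 ± 0.85), Lmo1 (20.3 ± 5.35), Ldb2 (12.2 ± 0.98), Lmx1b (6.77 ± 2.09) and Isl1 (0.60 ± 0.13), and each of the first 5 genes overlapped its neighbour in this order. In the mutants at E10.5, Ldb1 stood at 48.9 ± 7.47 (SD, n = 4) CPM per kilobase, Lhx9 at 34.2 ± 2.71, Lmo4 at 25.8 ± 1.94, Lhx2 at 18.8 ± 1.69, Ldb2 at 16.3 ± 0.67, Lmo1 at 12.5 ± 2.18, Lmx1b at 4.65 ± 1.23 and Isl1 at 0.46 ± 0.13, with overlap between Lhx2 and Ldb2.

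Mutant replicates 4 and 5 stood apart from the other mutants in most of these genes. At E10.0, 6 of the 8 genes (all but Isl1 and Lmo4) were higher in both replicates 4 and 5 than in both other mutants, by a factor of 1.70 in Lmx1b, 1.54 in Lmo1, 1.34 in Ldb1, 1.30 in Lhx2, 1.26 in Lhx9 and 1.14 in Ldb2. Of all genes tested, 28.1% were higher in both of these replicates at E10.0 and 29.9% at E10.5. At E10.5 it was 5 of the 8 genes, by 1.56 in Lmx1b, 1.34 in Lmo1, 1.30 in Ldb1, 1.16 in Lhx2 and 1.12 in Lhx9. Without the 4 libraries, 6 of the 8 genes were called between genotypes at E10.0, with Isl1 higher and Lhx2, Lhx9, Lmx1b, Ldb1 and Lmo1 lower, and 2 at E10.5, Lhx2 and Lmo1. Over all genes, the same fit called 2018 at E10.0 and 525 at E10.5, in place of 819 and 462. The part of the Rn45s feature in these differences was not tested.

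**Figure D5:**
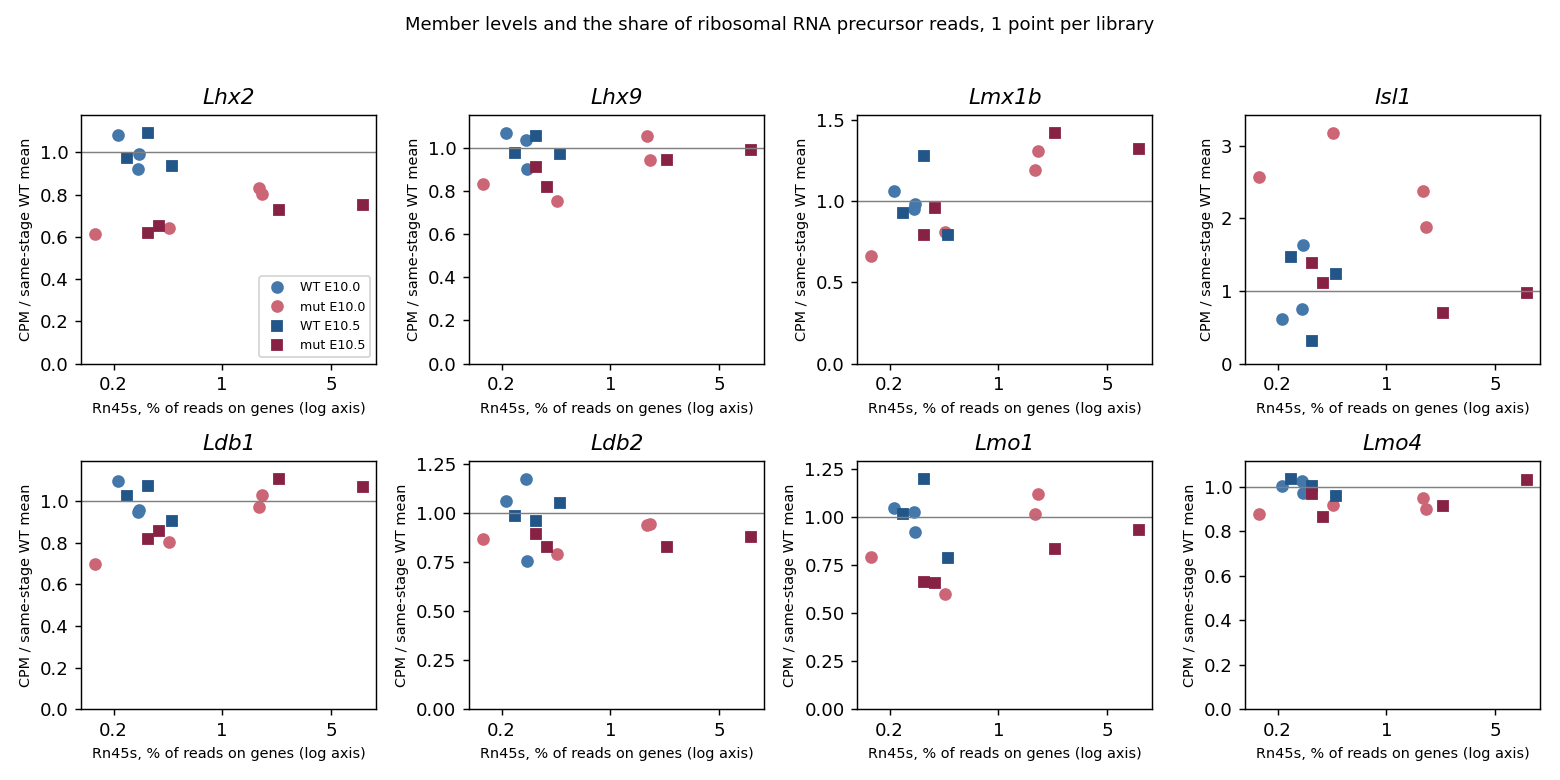
CPM of each gene divided by the wild-type mean of the same stage (vertical axes) against the share of Rn45s in the reads on genes (horizontal log axes), with 1 point per library; circles are E10.0, squares E10.5. The 4 mutant libraries above 1.72% of Rn45s lie higher than the other mutants in Lhx2, Lhx9, Lmx1b, Ldb1 and Lmo1, and in Lhx2 they stay below 1.

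Other genes of the LIM system were counted as a list of 14, of which 8 passed the filter. Between genotypes 0 of the 8 were called at either stage by edgeR's exact test, beside 2 (Ssbp2 and Ssbp4, both lower) at an unadjusted p under 0.05 at E10.0 and 0 at E10.5. Ssbp2, a partner of Ldb proteins, rose with stage from 57.8 ± 9.74 (SD, n = 3) to 74.8 ± 3.33 (SD, n = 3) CPM in wild type and from 49.1 ± 0.95 (SD, n = 4) to 68.2 ± 0.75 (SD, n = 4) CPM in the mutants. Isl2 fell in wild type from 1.36 ± 0.03 (SD, n = 3) to 0.78 ± 0.14 (SD, n = 3) CPM, and Lhx6 fell in the mutants from 2.08 ± 0.47 (SD, n = 4) to 1.26 ± 0.42 (SD, n = 4) CPM. The other tested genes (Lmx1a, Lmo2, Lmo3, Ssbp3 and Ssbp4) passed in no comparison. Lhx1, Lhx3, Lhx4, Lhx5 and Lhx8 did not exceed 0.29 CPM in any library, and the X-linked Rlim, which encodes a ubiquitin ligase acting on Ldb, lay at 143 to 200 CPM and was not tested.

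Limb genes linked to LIM factors formed a second list of 14, all tested. Between genotypes, 3 fell at E10.0 (Grem1, Tbx5 and Pkdcc) and 2 at E10.5 (Grem1 and Pkdcc). None was called higher by edgeR's exact test. At an unadjusted p under 0.05, 0 of the 14 were higher and 5 lower at E10.0, and 1 (Sall1) was higher and 3 lower at E10.5. Grem1, the BMP antagonist that acts between Shh and the ridge, was at 23.2 ± 4.26 (SD, n = 3) CPM in wild type and 9.97 ± 1.16 (SD, n = 4) CPM in the mutants at E10.0, and at 28.6 ± 3.16 (SD, n = 3) and 13.4 ± 1.19 (SD, n = 4) CPM at E10.5. With stage, 2 rose and 3 fell in wild type, and 5 rose and 4 fell in the mutants. Shh rose from 3.03 ± 0.99 (SD, n = 3) to 6.96 ± 0.39 (SD, n = 3) CPM in wild type and from 3.60 ± 1.16 (SD, n = 4) to 8.96 ± 1.95 (SD, n = 4) CPM in the mutants. Wnt7a, the dorsal ectodermal signal upstream of Lmx1b, fell from 19.3 ± 3.66 (SD, n = 3) to 10.2 ± 0.67 (SD, n = 3) CPM in wild type and from 14.4 ± 2.67 (SD, n = 4) to 7.36 ± 1.45 (SD, n = 4) CPM in the mutants. Lmx1b also fell in both stage comparisons. Between genotypes at E10.0, Wnt7a had a log2 fold change of -0.42, not called, beside -0.01 for Lmx1b. A link between the courses of both genes was not tested. Sall1 rose and Msx1 fell in both genotypes, with log2 fold changes in wild type of 0.74 and -0.93. The change with stage differed between genotypes for 0 of the 14 by edgeR's quasi-likelihood test, and for 1 at an unadjusted p under 0.05, Fgf10.

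The genes whose course over the 14 libraries was most like that of a LIM-homeodomain gene were sought among all tested genes by the root mean square difference of log2(CPM + 1), centred on each gene's mean. For Lhx2 they included Mogat2 at 0.095 and Scd1 at 0.16, beside an SD of Lhx2 itself of 0.40. Mogat2, a monoacylglycerol acyltransferase gene, was at 83.5 ± 5.02 (SD, n = 3) CPM in wild type and 63.3 ± 6.47 (SD, n = 4) CPM in the mutants at E10.0, and at 53.2 ± 4.83 (SD, n = 3) and 38.7 ± 4.2 (SD, n = 4) CPM at E10.5. For Lmx1b the nearest were Ccdc85c at 0.11, Ppan at 0.12 and Map3k11 at 0.16, beside its SD of 0.43. Lhx9 (SD 0.16) had Samd4b at 0.085 and Mapk3 at 0.089 among its nearest, and Isl1 (SD 0.35) was nearest to 4930447C04Rik at 0.21, Runx1 at 0.23 and Prkg1 at 0.24.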

How the data were processed

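The authors deposited raw read counts per gene symbol for 14 libraries of forelimb buds (wild type, n=3, and Smad4Δ/Δc, n=4, at 2 stages). Per the study's methods and the submitters' notes, single-end reads were aligned to mm9 with TopHat2 2.0.13 and counted with HTSeq without regard to strand. HTSeq's rows for reads without a gene (6.18% to 9.86%) and for ambiguous reads (1.49% to 1.75%) were left out. Both shares are of the sum of reads on genes, reads without a gene and ambiguous reads.

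Libraries were scaled by TMM. The 1041 symbols of chromosomes X, Y and M were dropped, and the test covered the 12393 genes that reached 1 CPM in 3 or more libraries. Dispersions were estimated over all samples (tag-wise, prior.df 10). Groups were compared by edgeR's exact test and the stage by genotype interaction by its quasi-likelihood test, with Benjamini-Hochberg adjustment. Standard errors come from the tag-wise dispersion. Between the mutant stages, same-numbered libraries deviated together (correlations of 0.269 to 0.611, 3 pairs), and so did replicates 4 and 5 across numbers (0.286 and 0.383). Replicates 1 and 3 of E10.0 also went with replicate 2 of E10.5 (0.349 and 0.319), and replicate 3 of E10.0 with replicate 1 of E10.5 (0.112). Pairs of replicate 4 or 5 with any of the other mutants were negative (-0.587 to -0.174). No label says what the numbers share. The tests were tested on simulated data with independent libraries and without a split of mutant replicates 4 and 5. How they behave under that split was thus not simulated. The p-values measure the spread between libraries, each of 1 embryo. In the mutants this spread includes the difference of replicates 4 and 5 from the other mutants. The tests between mutant stages treat all libraries as independent.

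The members, marker lists and gene lists were chosen with earlier results of these data known. All members are named, other LIM genes where called, at most 5 limb genes with values (the called genes with the largest log2 fold change), and the 3 genes nearest to each LIM-homeodomain gene, of which some are not reported here. Alternatives were RLE, DESeq2, the quasi-likelihood test with and without a replicate block, other filters, and fits without single libraries or without mutant replicates 4 and 5. Gene positions are from GENCODE on NCBIM37 (mm9), and promoter windows from RefSeq on GRCm38.p6. The work was done in R 4.3.3 with edgeR 4.0.16 and DESeq2 1.42.0, and in Python 3.11.15 with matplotlib 3.10.9.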

Additional observations from a re-analysis of the deposited data

How the results depend on the processing

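Of 903 values of the 8 genes under an alternative, 842 kept their direction and side of the threshold, 14 lost a call, 23 gained one and 24 changed sign. None of the called Lhx2 differences changed sign or lost its call in any fit run.

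The replicate numbers did not pair the genotypes within a stage: the correlation of deviations was -0.260 to 0.174 over 4 same-numbered pairs (mean -0.08) and had a mean of 0.02 over 20 others. Nor did they pair the stages in wild type (-0.283 to -0.0785, 3 pairs). In the mutants, same-numbered libraries deviated together, but so did differently numbered ones on the same side of the Rn45s split. Pairing by number was thus not separated from that split. The fit with the replicate block kept every call of the 8 genes between the mutant stages. With a replicate block, 5 of the 8 genes and 1961 genes in all (625 higher and 1336 lower) were called at E10.0 and 2 of the 8 and 280 genes at E10.5, and the E10.5 difference of Lmx1b was -0.23. Numbers 4 and 5 occur only among mutants, so that with the block these libraries have no same-numbered wild type. This fit and the one without them are thus not separate checks. At E10.0 they gave -0.317 and -0.318 for Lhx9, -0.506 and -0.508 for Lmo1, and -0.403 and -0.400 for Ldb1. For Lmo1 at E10.5 they gave -0.70 and -0.59. Without the 4 libraries rich in Rn45s, the counts were 6 and 2018 at E10.0 and 2 of the 8 genes at E10.5, Lmx1b at E10.5 was -0.18, the interaction called 6 genes, and that of Lhx2 was 0.0092 and of Ldb2 0.0518. The quasi-likelihood test called 1 of the 8 genes at E10.0. Fitted on its own 2 groups, the wild-type stage comparison called 1932 genes. The interaction called 87 genes with DESeq2 and 39 without a filter. The Lmx1b difference at E10.0, near 0, was 0.0070 with DESeq2, 0.0068 with RLE, 0.0059 without a filter and 0.0098 with Rn45s removed. The cause of these shifts was not tested.

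When 1 library was left out, the 8 genes gave 1 to 3 calls at E10.0 and 2 to 5 between stages in wild type. All genes gave 254 (without wild-type replicate 3) to 1062 calls at E10.0, 286 (without wild-type replicate 2) to 516 at E10.5, 484 to 1515 between stages in wild type and 7 to 34 in the interaction. Values that changed sign ranged from -0.17 to 0.15 for Lmx1b at E10.0, -0.34 to 0.45 for Isl1 and -0.13 to 0.0210 for Ldb1 at E10.5, and -0.16 to 0.0221 for Ldb1 and -0.0754 to 0.0135 for Lmo4 with stage in mutants. In the interaction they ranged from -0.15 to 0.00053 for Lhx2, -0.0462 to 0.12 for Lhx9 and -0.18 to 0.12 for Ldb2. Isl1 rests on 14 to 112 reads per library.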
